A study of Mus musculus with 6 samples.

Results

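The genes of Mediator and of the general transcription factors of RNA polymerase II were followed in control and Taf4a-deleted muscle stem cells (MuSCs), the cells that repair skeletal muscle. Members were taken by symbol from the deposited gene table: subunits named Med with a number, subunits of TFIIA, TFIIB, TFIIE, TFIIF and TFIIH, the CDK-activating kinase (CAK) and the kinase module of Mediator, if protein-coding and with a mean of at least 5 over the 6 libraries. The rule found 49 genes of 22081 in the table, 32 of Mediator and 17 of the general transcription factors. All 49 genes with a matching symbol were protein-coding and above the mean, so none was lost to the filter, and the member with the lowest mean was Med18 with 8 to 48 normalized counts. Med10 and Gtf2a1l were not analysed here.

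The RNA-seq libraries came from freshly isolated, FAC-sorted MuSCs of C57BL/6 mice, 3 labelled as wild type and called control here, and 3 from Taf4asKO mice. Each library was made from 90000 cells and 10 ng of total RNA, and the mice were males and females of 8 to 20 weeks. Every group carried Taf4a fl/fl alleles. The Taf4asKO mice also carried Pax7CRE-ERT, a tamoxifen-inducible Cre recombinase under Pax7, and received 0.05 mg tamoxifen per g body weight at each injection, which removes exons 11 to 12 of Taf4a. Control mice were littermates with or without the Cre allele per the study's methods, and a Pax7-zsGreen reporter could be present or absent in either group. Whether the mice behind the control libraries received tamoxifen is not given in the labels. Cre acts only in cells that express Pax7, so other cells that pass the sorting gate (SCA1-/CD45-/CD31-, Integrin-a7+ or GFP+) keep Taf4a. The study's methods speak of biological replicates in quantitative work, while the sample titles number these libraries without naming animals, so p-values measure the spread between these samples.

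Transcription by RNA polymerase II starts from a pre-initiation complex in which TFIID, the complex that holds TBP and TAF4A, binds the promoter, TFIIA steadies TBP on DNA, TFIIB and TFIIF bring in the polymerase, TFIIE recruits TFIIH, and TFIIH opens the DNA and phosphorylates the polymerase tail through CAK. Mediator bridges activators and this machinery: its head and middle modules touch the polymerase, MED14 forms the backbone, the tail receives activators, and a kinase module binds reversibly and hinders contact with the polymerase. MuSCs rest in quiescence with low RNA output, and raise transcription when they are activated.

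5 genes passed the test described below, all higher in Taf4asKO, and the 250 bases upstream of their RefSeq start sites (GRCm38.p6, written 5′ to 3′ on the strand of the gene) are shown because TFIID, the complex of TAF4A, acts at promoters. Capitals mark CCAAT (the NF-Y motif), GGGCGG (the Sp1 motif) and TATAAA (the TATA box) or the reverse complement of each, and no motifs overlapped.
Gtf2a1 (chr12:91590488-91590737, minus strand): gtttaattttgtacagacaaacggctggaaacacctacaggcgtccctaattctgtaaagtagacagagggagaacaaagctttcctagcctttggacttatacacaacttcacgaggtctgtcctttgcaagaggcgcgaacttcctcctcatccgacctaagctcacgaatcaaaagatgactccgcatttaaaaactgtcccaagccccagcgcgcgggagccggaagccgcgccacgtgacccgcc
Gtf2b (chr3:142764997-142765246, plus strand): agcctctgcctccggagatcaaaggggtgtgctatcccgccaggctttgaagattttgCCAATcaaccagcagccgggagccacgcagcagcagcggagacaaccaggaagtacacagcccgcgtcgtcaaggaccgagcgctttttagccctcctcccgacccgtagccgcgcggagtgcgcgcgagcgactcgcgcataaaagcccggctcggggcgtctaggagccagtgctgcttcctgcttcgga
Ccnc (chr4:21727451-21727700, plus strand): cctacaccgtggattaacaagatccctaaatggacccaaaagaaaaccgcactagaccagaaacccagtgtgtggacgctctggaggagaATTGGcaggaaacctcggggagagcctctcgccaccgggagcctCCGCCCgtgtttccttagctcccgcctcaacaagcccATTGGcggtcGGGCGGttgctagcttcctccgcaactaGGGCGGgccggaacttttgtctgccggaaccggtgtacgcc
Gtf2h5 (chr17:6079578-6079827, plus strand): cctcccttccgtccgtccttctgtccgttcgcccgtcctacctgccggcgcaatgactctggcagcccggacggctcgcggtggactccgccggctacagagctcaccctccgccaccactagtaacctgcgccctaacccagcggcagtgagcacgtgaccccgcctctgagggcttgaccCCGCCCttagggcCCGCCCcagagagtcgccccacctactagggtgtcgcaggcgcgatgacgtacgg
Gtf2a2 (chr9:70012298-70012547, plus strand): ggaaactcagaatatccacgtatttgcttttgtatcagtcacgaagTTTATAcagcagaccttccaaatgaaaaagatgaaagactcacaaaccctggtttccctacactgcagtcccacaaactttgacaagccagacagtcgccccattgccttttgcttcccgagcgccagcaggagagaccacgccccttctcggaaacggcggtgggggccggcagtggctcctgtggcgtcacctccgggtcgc
The start of Gtf2b in RefSeq lay 202 bases downstream of the start in the gene table, and that of Gtf2h5 42 bases downstream. The RefSeq start of Gtf2a2 lay 2 bases upstream, and Gtf2a1 and Gtf2h5 each had 2 RefSeq starts, of which 1 is shown.

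These sequences shared no motif that all of them held. Gtf2a1 had none of the 3 motifs in its window. Gtf2b had 1 CCAAT, 192 to 188 bases before the RefSeq start, a place inside the gene as the gene table bounds it. Ccnc had 2 CCAAT on the reverse strand and 3 GGGCGG. Gtf2h5 had 2 GGGCGG on the reverse strand, 68 to 63 and 55 to 50 bases before the start, and Gtf2a2 had 1 TATAAA on the reverse strand, 204 to 199 bases before it. RefSeq promoters were matched for 41 of the 49 genes, and motifs were counted in these in the full RefSeq windows of 300 bases, which run 50 bases past the start. Among them 15 held CCAAT, 25 held GGGCGG and 5 held TATAAA in at least 1 promoter. Per promoter (46 windows of 300 bases), the shares were 34.8%, 58.7% and 10.9%, and in windows of the same length of protein-coding genes with a mean of at least 5 they were 37.2%, 60.9% and 7.3% (all windows in the table, 37.4%, 35.7% and 13.6%). Ccnh, Cdk19, Ercc3, Gtf2e2, Med23, Med24, Med30 and Med8 had no match.

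The values are normalized counts, that is reads per gene divided by a size factor of the library. Library totals ran from 12338676 to 14551732, and within-group correlations across genes from 0.9611 to 0.9843. Taf4 itself had 613, 534 and 478 in control and 631, 565 and 574 in Taf4asKO (log2 fold change 0.13, limma adjusted p 0.524), so the gene total did not separate the labels and each direction is that of the groups as labelled. Muscle stem cell markers were present in every library, with a summed level of 38984 to 41590 in control and 39707 to 41607 in Taf4asKO (3 of 8 called lower, 2 higher). Markers of other cells were present too. Fibro-adipogenic markers summed to 55578 to 81780 in control and 33840 to 56144 in Taf4asKO (2 of 7 called lower, Dpt and Col3a1). The other 5 of these genes had positive log2 fold changes, among them Col1a1 with 0.88, Dcn with 0.77 and Lum with 1.24, none called, and without Col3a1 the sum ran from 9353 to 34080 in control and from 20758 to 38571 in Taf4asKO. Col3a1 alone held 46225 to 47700 in control, so the sum is mostly collagen RNA there. Pdgfra had only 49 to 152 in control and 160 to 247 in Taf4asKO, and Ly6a 2 to 14 and 8 to 13. Schwann cell markers summed to 1144 to 2843 and 3441 to 4188 (4 of 4 called higher), and those of pericytes and smooth muscle to 9064 to 14020 and 13923 to 16199 (2 of 4 called higher). Endothelial markers summed to 215 to 526 and 549 to 949 (0 of 5 called), myofibre markers to 1211 to 3688 and 2097 to 2658 (0 of 6), and Cd68, Lyz2 and Csf1r of the immune list to 422 to 538 and 666 to 924 (0 of 3), with a log2 fold change of 1.31 for Lyz2, -0.03 for Cd68 and -0.56 for Csf1r. Ribosomal protein genes held 1.55% to 1.67% of the total in control and 0.891% to 1.01% in Taf4asKO. The part of these differences in the results below was not tested, and in bulk RNA a change in the number of cells of a type and a change of RNA per cell cannot be told apart.

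The comparison asked which subunits of the machinery around TFIID change in transcript level in Taf4asKO MuSCs. TFIIA, TFIIB, the smallest subunit of TFIIH and the cyclin of the Mediator kinase module were higher in Taf4asKO, and no member was called lower. A gene was called with a limma adjusted p under 0.05 over all 18562 genes tested and a change of at least 1.3-fold. By this rule 5 of 49 members (10.2%) were called higher, against 5.93% of all genes tested, and 0 of 49 lower, against 6.71%. Without control replicate 2, 5 members were called higher; without control replicate 1, control replicate 3 or Taf4asKO replicate 3, 2 were, and without Taf4asKO replicate 1 or 2, 1 was, Gtf2a1. Over the same fits, genes called higher in the whole table ranged from 341 to 1616. With adjustment for GC content and exon length 2 of 49 members were called higher, Gtf2a1 and Gtf2b, beside 1043 of 18532 genes in the same fit. Of the general transcription factors 4 of 17 were called, and of Mediator 1 of 32. The list was not tested against other genes. Without adjustment 9 of 49 members had a limma p under 0.05, against 28.8% of all genes tested. The median log2 fold change of the members was 0.15 (all genes tested, 0.0040), with a range of -0.43 to 1.08, and 32 were positive and 17 negative. Without control replicate 3 this median was 0.0446. All Taf4asKO libraries lay above all control libraries for 10 members, against 16.6% of all genes, and below them for 4 members, against 16.4%. With the replicate number as a block, 5 members were called higher (9.09% of all genes) and 1 lower, Ercc2 (8.98%).

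**Figure D1:**
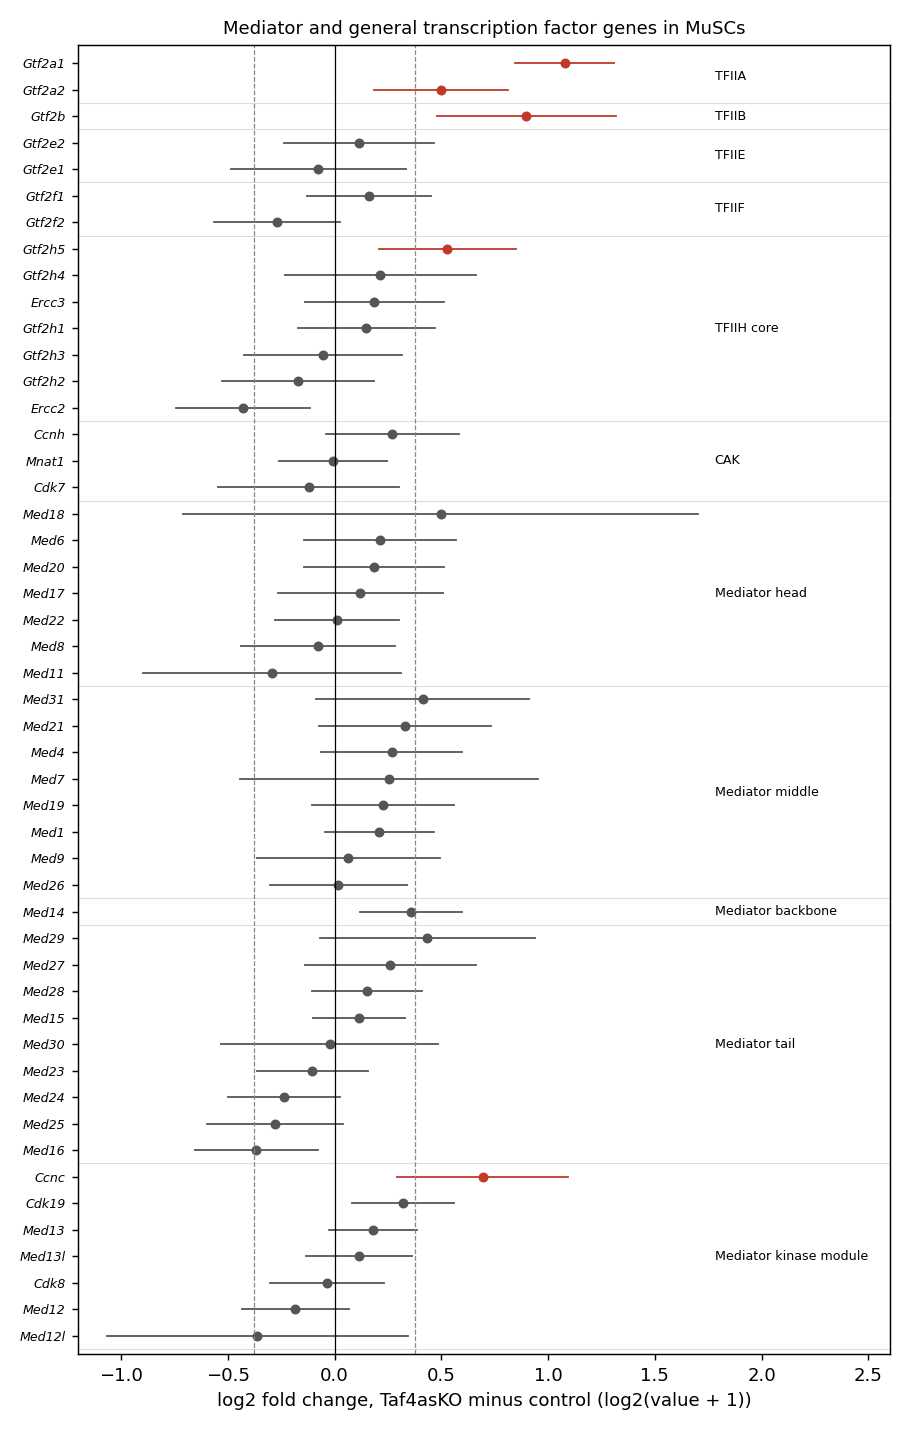
Log2 fold change of each of the 49 genes (x axis, Taf4asKO minus control on log2(value + 1), n = 3 libraries per group), grouped by complex, with 95% confidence intervals from limma as bars, called genes in red and the 1.3-fold limits dashed. Both TFIIA genes, Gtf2b, Gtf2h5 and Ccnc are the called genes, with log2 fold changes of 0.50 to 1.08.

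Both subunits of TFIIA rose. Gtf2a1 (ENSMUSG00000020962, mm10 chr12:91555262-91590487, minus strand) encodes the precursor that is cut into the alpha and beta chains of TFIIA. Its normalized counts were 651, 785 and 731 for control, and 1604, 1444 and 1520 for Taf4asKO. The lowest Taf4asKO library was far above the highest control library, and the fold of 2.11 was the largest among the members. The log2 fold change was 1.08 (SE 0.10, 95% confidence interval 0.85 to 1.31, limma adjusted p 0.000303), and the call stayed in all 19 alternative settings, with values of at least 0.95. Gtf2a2 (ENSMUSG00000033543, chr9:70012550-70022866, plus strand), the gamma chain, had 181, 216 and 166 in control and 261, 275 and 256 in Taf4asKO. The groups did not overlap and the fold was 1.41 (log2 0.50, SE 0.14, interval 0.18 to 0.81, limma adjusted p 0.0443). The Gtf2a2 call was close to the limit: it was lost without any 1 library other than control replicate 2 (limma adjusted p 0.101 to 0.171) and after adjustment for GC content and exon length (log2 0.38, limma adjusted p 0.12).

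Gtf2b (ENSMUSG00000028271, chr3:142765045-142783606, plus strand) encodes TFIIB, the single-chain factor that places the polymerase at the start site. It rose from 141, 214 and 131 in control to 322, 287 and 279 in Taf4asKO. Control replicate 2 stood above the other controls, yet below each Taf4asKO library. The fold was 1.86 (log2 0.90, SE 0.19, interval 0.48 to 1.32, limma adjusted p 0.0132). The call was lost without Taf4asKO replicate 1 (0.84, limma adjusted p 0.0605) and without Taf4asKO replicate 2 (0.92, limma adjusted p 0.0589).

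TFIIE and TFIIF, the factors that enter with or after the polymerase, had no called gene. Gtf2e1, the alpha chain of TFIIE, had 127, 172 and 119 in control and 124, 148 and 121 in Taf4asKO, and Gtf2e2, the beta chain, 227, 273 and 192 and then 270, 251 and 223. Their log2 fold changes were -0.08 (interval -0.49 to 0.34) and 0.11 (interval -0.24 to 0.47), with the groups overlapping in both. The chains of TFIIF had values on opposite sides of 0. Gtf2f1, the large chain, had 660, 622 and 490 in control and 710, 636 and 624 in Taf4asKO (log2 0.16, limma adjusted p 0.455). Gtf2f2, the small chain, had 207, 216 and 197 in control and 162, 170 and 182 in Taf4asKO, without overlap (log2 -0.27, limma adjusted p 0.213), and did not pass.

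The core of TFIIH had 1 called gene of 7, higher in Taf4asKO, beside 5.93% of all genes tested called higher and 6.71% lower. Gtf2h5 (ENSMUSG00000034345, chr17:6079786-6086517, plus strand), the smallest subunit, which stabilizes the complex, rose from 167, 218 and 173 to 277, 259 and 265. The lowest Taf4asKO library was above the highest control library, and the fold was 1.44 (log2 0.53, SE 0.14, interval 0.21 to 0.85, limma adjusted p 0.0382). The Gtf2h5 call was lost without any 1 library other than control replicate 2 (limma adjusted p 0.0888 to 0.133) and after adjustment for GC content and exon length (0.41, limma adjusted p 0.0955). Ercc2 (ENSMUSG00000030400, chr7:19382010-19395694, plus strand), the helicase that serves DNA repair as well as transcription, stood on the other side of 0. It had 266, 276 and 257 in control and 225, 201 and 171 in Taf4asKO, with no overlap. Its log2 fold change of -0.43 (SE 0.14, interval -0.74 to -0.11) had a limma adjusted p of 0.0753, and it passed in the blocked fit with 0.0470. With the block and adjustment for GC content and exon length Ercc2 did not pass (-0.308, limma adjusted p 0.138). Exons of Ercc2 overlap those of the antisense gene Gm26852 (24.6% of its exon length) and of Klc3 (17.8%), both on the opposite strand, and the strand setting of the counting is not given in the sources used here, so its value is uncertain.

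The other TFIIH genes overlapped between the groups. Ercc3, the translocase that opens the promoter, had 396, 461 and 318 in control and 414, 439 and 471 in Taf4asKO (log2 0.19). The structural subunits Gtf2h1, Gtf2h2, Gtf2h3 and Gtf2h4 had log2 fold changes of 0.15, -0.17, -0.06 and 0.21. CAK, the kinase part of TFIIH that also activates cell cycle kinases, had 0 called genes of 3 (all genes tested, 5.93% higher and 6.71% lower). The kinase Cdk7 had 203, 312 and 215 in control and 201, 264 and 199 in Taf4asKO (log2 -0.12), with replicate 2 the highest of both groups. Its cyclin Ccnh had 205, 242 and 202 and then 239, 254 and 290 (log2 0.27, limma adjusted p 0.234), and the assembly factor Mnat1 446, 489 and 442 and then 488, 467 and 417 (log2 -0.01, interval -0.26 to 0.24).

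**Figure D2:**
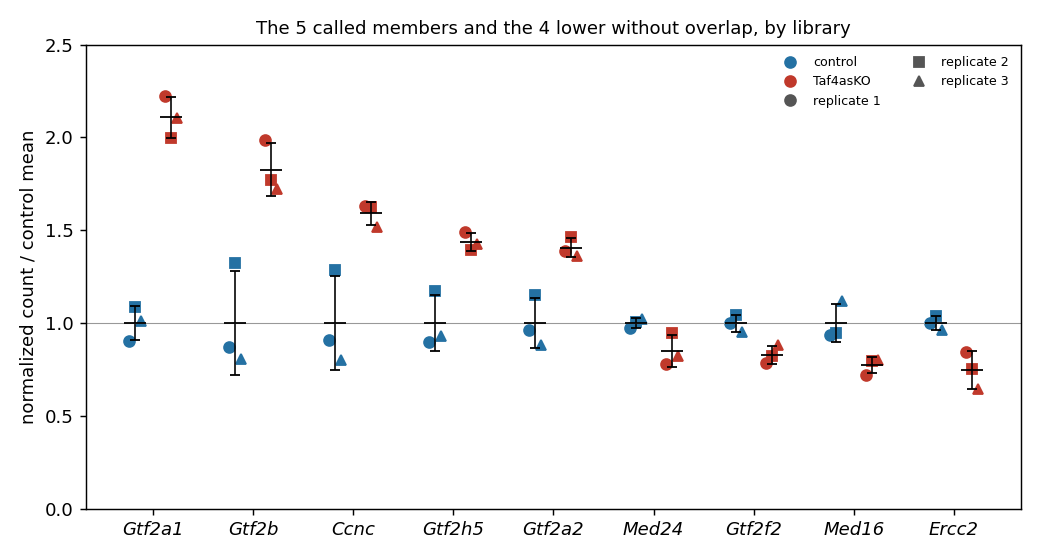
Normalized count of each library divided by the control mean of the gene (y axis, from 0) for the 5 called genes and the 4 genes with every Taf4asKO library below every control library; colours give the group, symbols the replicate number, and black lines the mean ± SD (n = 3). Gtf2a1 is near 2.11 times the control mean in Taf4asKO, and control replicate 2 is the highest control library of all 5 called genes.

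The core of Mediator, that is its head, middle, backbone and tail, had 0 called genes of 25, beside 5.93% of all genes called higher and 6.71% lower. An unadjusted limma p under 0.05 was found in 2 of them, against the same 28.8% of all genes, and their median log2 fold change was 0.15. In the head, which binds the polymerase, 0 of 7 were called and the median was 0.12. Med6, a conserved head subunit, had 96, 109 and 106 in control and 125, 124 and 112 in Taf4asKO, all above the controls but with a log2 fold change of 0.21 and a limma adjusted p of 0.414. Med17, which holds the head together, had 316, 466 and 293 and then 358, 424 and 366 (log2 0.12). The extremes of the head were the genes with its fewest counts. Med18 had 8, 48 and 32 in control and 29, 30 and 43 in Taf4asKO (log2 0.50, interval -0.71 to 1.70), a value that turned to -0.223 without control replicate 1, and Med11 had 35, 60 and 40 and then 33, 39 and 35 (log2 -0.29, interval -0.90 to 0.31). The Med11 value was -0.0706 without control replicate 2. The interval of Med18 reached past 2-fold and that of Med11 did not.

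In the middle module 0 of 8 genes were called, beside 5.93% higher and 6.71% lower over all genes tested. Their median log2 fold change was 0.24 with a range of 0.02 to 0.41. A positive value was seen in 8 of 8, against 9364 of 18562 genes tested. The tally depends on Med26 and Med9, the members nearest 0: Med26 was negative under upper-quartile scaling (-0.0152) and without control replicate 3 (-0.0475), Taf4asKO replicate 1 (-0.0585) or Taf4asKO replicate 2 (-0.0248), and Med9 without control replicate 3 (-0.0579) or Taf4asKO replicate 3 (-0.0290). Med31, its conserved small subunit, had 47, 71 and 53 in control and 66, 80 and 80 in Taf4asKO (log2 0.41, interval -0.09 to 0.91, limma adjusted p 0.257). Med1, the contact of nuclear receptors, had 1541, 1735 and 1299 and then 1786, 1770 and 1696 (log2 0.21, limma adjusted p 0.261). Only control replicate 2 of Med1 lay inside the Taf4asKO range. Med26, which can hand over elongation factors and touches TFIID, had 294, 275 and 248 and then 306, 292 and 233 (log2 0.02). Med4, Med7, Med9, Med19 and Med21 had log2 fold changes of 0.27, 0.25, 0.06, 0.23 and 0.33. With 1 library left out, the Med7 value ranged from 0.00769 to 0.492. The backbone gene Med14 had 718, 675 and 675 in control and 989, 845 and 825 in Taf4asKO. No library overlapped, and the log2 fold change was 0.36 (SE 0.11, interval 0.12 to 0.59, limma adjusted p 0.0525); in the blocked fit the limma adjusted p was 0.0256 and the fold stayed under the 1.3-fold limit.

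Tail subunits, which receive activators, had log2 fold changes on both sides of 0, 5 negative and 4 positive, with a median of -0.02. Called were 0 of 9, beside 5.93% of all genes tested called higher and 6.71% lower. Med16 had 284, 287 and 339 in control and 219, 242 and 243 in Taf4asKO, and Med24, which sits next to it in the tail, 408, 422 and 430 and then 327, 398 and 346. Every Taf4asKO library was below every control library in both, and neither passed: the log2 fold changes were -0.37 (SE 0.13, limma adjusted p 0.0932) and -0.24 (SE 0.12, limma adjusted p 0.213). Med23, the third gene of this part of the tail, had 582, 571 and 515 and then 458, 536 and 561 (log2 -0.10), with overlap. Med25, a subunit bound by activators, had 1728, 1145 and 1289 in control and 1175, 1151 and 1054 in Taf4asKO (log2 -0.28, limma adjusted p 0.231). Control replicate 1 was the highest library of Med25 and the other controls lay near the Taf4asKO values. Med29 had 42, 47 and 52 and then 74, 52 and 67 (log2 0.44, limma adjusted p 0.238), and Med28 290, 314 and 281 and then 328, 340 and 316, without overlap (log2 0.15, limma adjusted p 0.417). Med15, Med27 and Med30 had log2 fold changes of 0.11, 0.26 and -0.02.

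The kinase module had 1 called gene of 7, its cyclin (all genes tested, 5.93% called higher and 6.71% lower). Ccnc (ENSMUSG00000028252, chr4:21727701-21759922, plus strand) encodes cyclin C, the partner of CDK8 and CDK19. It rose from 143, 202 and 126 in control to 256, 255 and 238 in Taf4asKO, and the highest control library, replicate 2, was below all 3 of them. The fold was 1.62 (log2 0.69, SE 0.18, interval 0.29 to 1.10, limma adjusted p 0.0320). The Ccnc call was lost without any 1 library other than control replicate 2 (limma adjusted p 0.0793 to 0.123) and after adjustment for GC content and exon length (0.61, limma adjusted p 0.072). Exons of Ccnc overlap Tstd3 on the opposite strand over 5.4% of their length.

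The kinases that pair with cyclin C are paralogs that replace each other in the module. Cdk8 had 614, 491 and 486 in control and 531, 502 and 510 in Taf4asKO (log2 -0.04, interval -0.30 to 0.23), with overlap. Cdk19 had 381, 404 and 379 and then 466, 516 and 474, without overlap (log2 0.32, SE 0.11, limma adjusted p 0.0773), and did not pass. Within a library the log2 ratio of Cdk8 to Cdk19 was 0.69, 0.28 and 0.36 in control and 0.19, -0.04 and 0.11 in Taf4asKO. Every Taf4asKO library had a lower ratio than every control library, with a difference of -0.36 and an exact two-sided permutation p of 0.1, the smallest that 3 against 3 libraries allow (adjusted over the 3 ratios, 0.3).

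The large subunits that tie the kinases to Mediator had no called gene either. Med12, which activates the kinase, had 2248, 1767 and 2031 in control and 1899, 1775 and 1632 in Taf4asKO (log2 -0.18, limma adjusted p 0.312), and its paralog Med12l 70, 41 and 99 and then 49, 63 and 43 (log2 -0.36, interval -1.07 to 0.34). The Med12l value was -0.0699 without control replicate 3 and -0.696 without control replicate 2. Exons of Med12l overlap Igsf10 on the opposite strand over 15.3% of their length, so its value is uncertain for that reason too. Med13, the link to the Mediator core, had 3383, 3051 and 3106 and then 3859, 3415 and 3540, without overlap (log2 0.18, limma adjusted p 0.234), and Med13l 3024, 2434 and 2915 and then 3275, 2781 and 2989 (log2 0.11). The log2 ratio of Med12 to Med12l differed by 0.18 (exact permutation p 0.7, adjusted 0.7), and changed sign to -0.105 without control replicate 3. The log2 ratio of Med13 to Med13l differed by 0.07 (exact permutation p 0.5, adjusted 0.7), and by 0.0151 to 0.132 with 1 library left out.

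**Figure D3:**
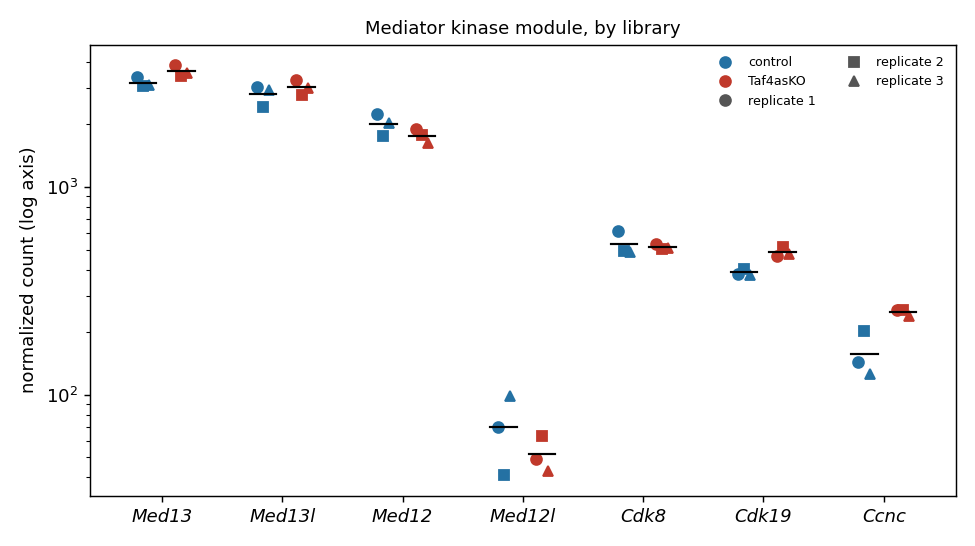
Normalized counts (y axis, log) of the 7 genes of the Mediator kinase module in each library, with colours for the group, symbols for the replicate number and black lines for group means (n = 3). Ccnc, Cdk19 and Med13 lie higher in every Taf4asKO library than in every control library, and Cdk8 overlaps.

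The genes that did not pass differed in how tightly their change was bounded. Of the 44 genes not called, 42 had a 95% confidence interval of the change inside 2-fold in both directions and 7 had one inside 1.3-fold. The interval reached 1.3-fold higher in 24 and 1.3-fold lower in 16, so the data do not bound the change below that size in these genes. Exons of Med31 (26.3% of the exon length), Med20 (21.4%) and Med7 (21.2%) are shared with genes of the opposite strand, and their values are uncertain as well. Control libraries varied more, with a median coefficient of variation of 14.3% against 7.7% in Taf4asKO, and control replicate 2 was the highest control library for 36 of 49 members, against 41.3% of all genes tested.

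Per kilobase of exon, the levels spanned a wide range in both groups. Med12l was lowest with a mean level of 5.49 normalized counts per kb in control and 4.05 in Taf4asKO, followed in control by Med7 with 13.6 and Med18 with 14.7. Gtf2f1 was highest with 344.0 and 382.5, next to Med13 with 293.4 and 332.5. Gtf2a1 moved from a level of 115.7 to 244.0 per kb, Gtf2b from 35.3 to 64.5 and Ccnc from 30.7 to 48.8. The rise of Gtf2a1 thus concerned a well expressed member, while Gtf2b and Ccnc stood low in control.

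**Figure D4:**
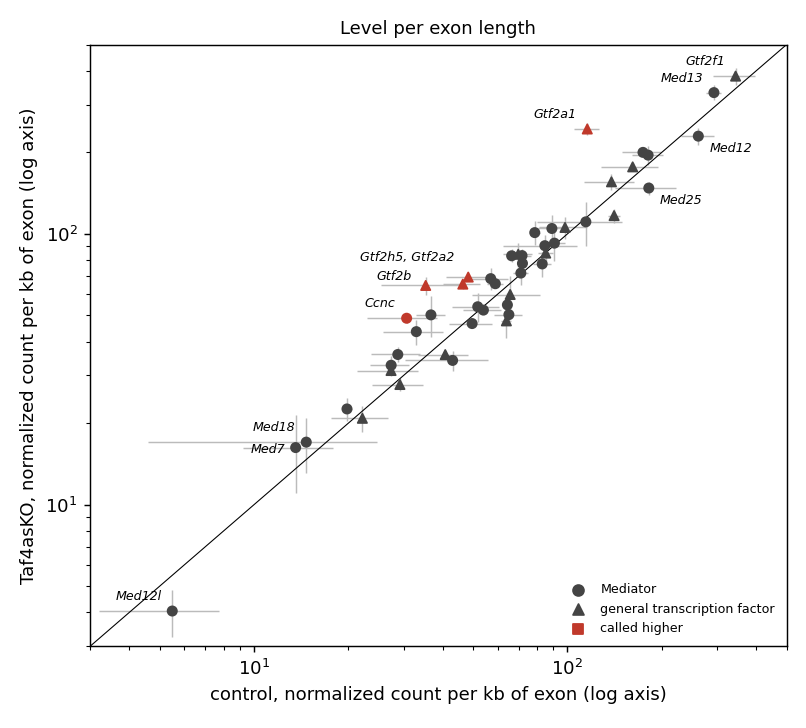
Mean level per kb of exon in control (x axis, log) and Taf4asKO (y axis, log) of the 49 genes, with SD as grey bars (n = 3) and the line of equal levels. Gtf2a1 is farthest above the line, at 115.7 and 244.0, and Med12l is the lowest gene in both groups.

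The called genes shared low GC content of the transcript. Their GC content lay between 37.6% and 43.9%, a range that held 12 members, while all 49 spanned 37.6% to 60.0% with a median of 47.3%. The genes whose Taf4asKO libraries all lay below control (Ercc2, Med16, Med24 and Gtf2f2) had 46.5% to 60.0%. Across the 49 genes, which share libraries and are not independent, Spearman's rho of the log2 fold change with GC content was -0.46, and with exon length -0.18. The same held in direction for GC content over protein-coding genes tested, at -0.24 (n = 13962), and over all genes tested, at -0.15 (n = 18532). In the lowest class of GC content 7.5% of all genes were called higher and 3.4% lower, and in the highest class 4.2% and 9.8%. The 5 called genes were among the 21 members in the lowest class, whose median log2 fold change was 0.23 against 0.09 for all genes there, and the 12 members in the highest class had a median of 0.01 against -0.09. After GC content and exon length had been adjusted for within each library, Gtf2a1 and Gtf2b were still called, and Ccnc as well when the replicate block was added.

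**Figure D5:**
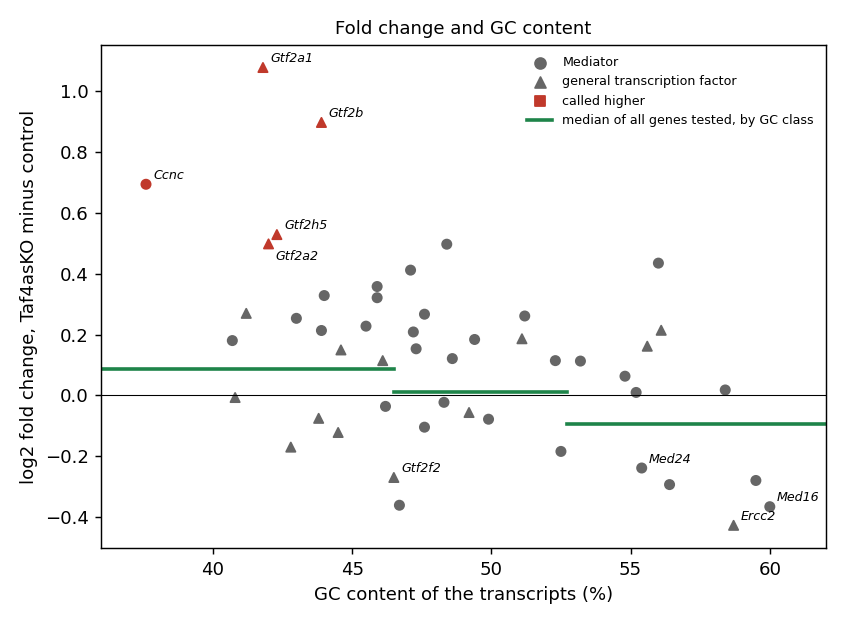
Log2 fold change (y axis, Taf4asKO minus control) of the 49 genes against the GC content of their transcripts (x axis, %), with circles for Mediator, triangles for general transcription factors, called genes in red and green lines for the median of all genes tested in each GC class. The called genes lie between 37.6% and 43.9%, and Ercc2, Med16 and Med24 on the right with log2 fold changes under 0.

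The neighbours of these factors in the pre-initiation complex were examined as lists. Of 12 genes of RNA polymerase II, 1 was called higher (5.93% of all genes tested) and 0 lower (6.71%): Polr2a, the catalytic subunit, rose from 2256, 2917 and 2617 to 15658, 12679 and 12945 (log2 2.41, limma adjusted p 1.9e-05). The other 11 had log2 fold changes of -0.46 to 0.58, and Polr2b also passed with the replicate block (0.39, limma adjusted p 0.0294). Of 14 genes of TFIID, 4 were called higher and 0 lower, beside the same 5.93% and 6.71% of all genes. Taf13 rose 2.01-fold, Taf5 1.94-fold, Taf6 1.57-fold and Taf12 1.5-fold (limma adjusted p 0.00584, 0.00154, 0.0254 and 0.0465). Taf7, a further TFIID subunit, had a log2 fold change of -0.43 and was called lower with the replicate block (limma adjusted p 0.0362). Tbp, the subunit that TFIIA and TFIIB bind, had 348, 343 and 282 in control and 320, 307 and 303 in Taf4asKO (log2 -0.06, limma adjusted p 0.802), with overlap. The 4 called TFIID genes and Polr2a were higher in each Taf4asKO library than in each control library, as were the 5 called members and 16.6% of all genes tested.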

How the data were processed

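MuSC RNA was profiled in 6 libraries, 3 control and 3 Taf4asKO, made with the SMARTer Stranded Total RNA Pico kit. Per the study's methods and the submitters' processing notes, reads were trimmed (Trimmomatic 0.39), mapped to mm10 (STAR 2.6.0c), counted over exons without multi-mapped or ambiguous reads (featureCounts 1.6.0) and normalized (DESeq2 1.14.1). The values deposited by the authors are therefore a score, normalized counts rounded to whole numbers, not raw counts, and raw depth was not used here. The test was limma 3.58.1 (R 4.3.3; lmFit, eBayes with trend, two-sided, genes with a mean of at least 5, Benjamini-Hochberg over 18562 genes) on log2(value + 1), which understates changes of low genes, with the limits of the study (adjusted p 0.05, 1.3-fold). The test was checked on simulated data.

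Members and lists were chosen with earlier results of these data known. All 49 members are named. Library values were planned for members past the limits, the extremes of each module and the kinase paralogs, and are given for further members outside that plan. Of the RNA polymerase II and TFIID lists, the called genes and Tbp were planned, and Taf7 and Polr2b were named after their values were seen. Exon length, GC content and overlaps came from GENCODE M21 (mm10), which held all 49 identifiers, 37 of them with the same start, end and strand. Between libraries of the same number, deviations from the group means had correlations of 0.235, 0.126 and 0.15. The mean of the other pairs, -0.0848, is no separate comparison: deviations within a group cancel out, which ties that mean to the same-number values. The sample titles give numbers but do not say that libraries of equal number belong together. Pairing them is thus an assumption, and results with the replicate block are an alternative to the main fit that rests on it. Of the alternatives, 19 settings in all, the effects are given at the end. Figures were drawn with matplotlib 3.10.9.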

Additional observations from a re-analysis of the deposited data

How the results depend on the processing

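The count of 5 members called higher held under upper-quartile and total scaling, scaling that left out mitochondrial and ribosomal protein genes and the 100 most abundant ones, no filter or a mean of at least 20, a pseudocount of 0.1, robust shrinkage, no fold limit and the replicate block. It became 1 with a fold limit of 2, 1 with adjusted p under 0.01, 2 with adjustment for GC content and exon length, and 3 with that adjustment and the replicate block; leaving out 1 library gave 1 to 5. The count of members called lower, 0, became 1 (Ercc2) with the replicate block and 1 with upper-quartile scaling (log2 -0.46, limma adjusted p 0.0495), and was 0 in every leave-one-out fit. The replicate block changed no other call of a member. The median log2 fold change of the members, 0.15, ranged from 0.0446 (without control replicate 3) to 0.208 when 1 library was left out, and from 0.116 to 0.15 in the other settings. The log2 ratio of Med12 to Med12l ranged from -0.105 to 0.42, that of Cdk8 to Cdk19 from -0.438 to -0.235, and that of Med13 to Med13l from 0.0151 to 0.132. Except for limits on fold or p and the GC adjustment, the settings other than leaving out a library kept all 5 calls; the cause of the lost calls was not tested.

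Genes with changes near 0 turned sign: Med22 under upper-quartile scaling (-0.0234) and under scaling without abundant genes (-0.00544), Med26 under upper-quartile scaling (-0.0152) and Med30 with GC adjustment (0.037, with and without the block). With 1 library left out, ranges that spanned 0 were -0.192 to 0.0305 for Med8, -0.0587 to 0.0835 for Med22, -0.0551 to 0.0581 for Mnat1, -0.179 to 0.0851 for Gtf2e1, -0.205 to 0.0662 for Gtf2h3, -0.0945 to 0.0738 for Cdk8, -0.00987 to 0.243 for Gtf2e2, -0.00821 to 0.326 for Med17, -0.179 to 0.208 for Med30, -0.0585 to 0.137 for Med26, -0.0579 to 0.187 for Med9, -0.223 to 1 for Med18 and -0.255 to 0.0703 for Cdk7. Of 931 member values over all settings, 875 kept direction and side of the threshold, 30 lost the call, 2 gained it and 24 turned sign. Part of this was fixed in advance: settings that change only the limits, the filter, the shrinkage or the block leave the fold change as it is. Stricter limits also cannot change a member that was not called. Over the whole table, 1246 genes were lower and 1101 higher. These became 520 and 330 with a fold limit of 2, and 545 and 331 with adjusted p under 0.01. With adjustment for GC content and exon length alone, 1099 of 18532 genes were lower and 1043 higher. The block gave 1667 and 1688, the block with GC adjustment 1574 and 1719, and leaving out 1 library 595 to 1505 and 341 to 1616. With 3 libraries per group, the 95% interval of the change lay inside 1.3-fold for 7 of the 44 members not called.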
